A study of Sus scrofa domesticus with 11 samples.

Results

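The NDUF genes encode nuclear-made proteins of respiratory complex I, the NADH:ubiquinone oxidoreductase of the inner mitochondrial membrane. They were taken as every gene whose name in the deposited table begins with NDUF, which gave 39 of 22029 genes. Of these, 31 carry a subunit name (NDUFA, NDUFB, NDUFC, NDUFS or NDUFV) and 8 are named NDUFAF, for assembly factors that help to build the complex and are absent from the finished enzyme. Among the subunit names, NDUFA4 is now assigned to complex IV and NDUFA4L2 is its relative, so 29 are subunits of complex I itself. The libraries were made from liver RNA of Yorkshire piglets, born preterm and fed by parenteral nutrition, at day of life 15. The SEFA-6179 group (n = 5) received that compound, known by its code name, at 48 mg/kg, and the control group (n = 6), labelled MCT for medium-chain triglyceride, received 3 ml/kg. Parenteral nutrition was common to both groups, so neither shows the liver of an enterally fed piglet. The sources used here give no sex, litter or batch, and each library was taken as 1 animal.

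Complex I takes electrons from NADH and passes them to ubiquinone while it pumps protons across the inner membrane. Its matrix arm holds an N module, where NADH is oxidised, and a Q module, where ubiquinone is reduced, and its membrane arm holds the proton pumps. Core subunits carry the redox centres and the pumps, the pumps being encoded by mitochondrial DNA, while supernumerary subunits surround them. Hepatocytes are rich in mitochondria and depend on this chain to reoxidise the NADH made in fatty acid oxidation.

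Total counts ran from 15974977 to 23416071 per library, and all pairs of libraries differed by more than sampling noise (lowest chi-square per degree of freedom 41.9, MCT replicates 2 and 4). The hepatocyte marker genes summed to 65360–172000 CPM (counts scaled to library size) in the SEFA-6179 libraries and 56570–164400 CPM in the MCT libraries. Across 13671 genes kept after a filter on low counts, edgeR's quasi-likelihood test called 30 at a Benjamini-Hochberg adjusted p below 0.05, which is 0.219% of the genes tested.

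Most NDUF genes had higher mean levels in the SEFA-6179 livers, by a modest amount, and none passed the test. All 39 passed the filter, and 34 (28 subunits and 6 assembly factors) had a log2 fold change above 0, against 49.8% of all genes tested. The median log2 fold change, SEFA-6179 against MCT, was 0.33 over the 31 subunit genes, 0.25 over the 8 assembly factors and 0.00 over all genes (-0.0015). Of the 39 genes, edgeR called 0 at the adjusted threshold. At an unadjusted p below 0.05, 10 were higher in SEFA-6179 (8 subunits and 2 assembly factors) and 0 were lower, where 5.24% of all genes tested were higher and 5.52% lower. The 10 were NDUFA5, NDUFB1, NDUFB4, NDUFV2, NDUFA1, NDUFA2, NDUFA6, NDUFS5, NDUFAF8 and NDUFAF1. The shares over other genes varied with gene length. Among 478 genes below 1000 bases and outside the respiratory chain, 54 were higher and 20 lower at that p. Among 7494 such genes of 4000 bases or more, 335 were higher and 415 lower. Of the 10 NDUF genes below 1000 bases, 4 were higher and 0 lower. The 39 genes are not independent of each other, as the values by library show. In bulk liver, fewer cells of a type and less RNA per cell cannot be told apart.

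No NDUF gene separated the groups, and few of all genes tested did, so this is not particular to the NDUF genes. Every SEFA-6179 library lay above every MCT library for 0 of the 39, and for 0.673% of all genes tested. Every SEFA-6179 library lay below every MCT library for 0 of the 39, and for 112 of the 13671 genes tested. Limma with library quality weights also called 0 of the 39, where it called 0.439% of all genes, while DESeq2 called 1, NDUFA5, where it called 1.6% of 15581 genes with an adjusted p. The authors' deposited table also holds NDUFA5 as its only NDUF gene below 0.05, with a log2 fold change of 0.62 and an adjusted p of 0.0330. Of all 22029 genes, 255 (1.16%) lay below 0.05 there, while the DESeq2 share above was of 15581 genes (250 called).

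**Figure D1:**
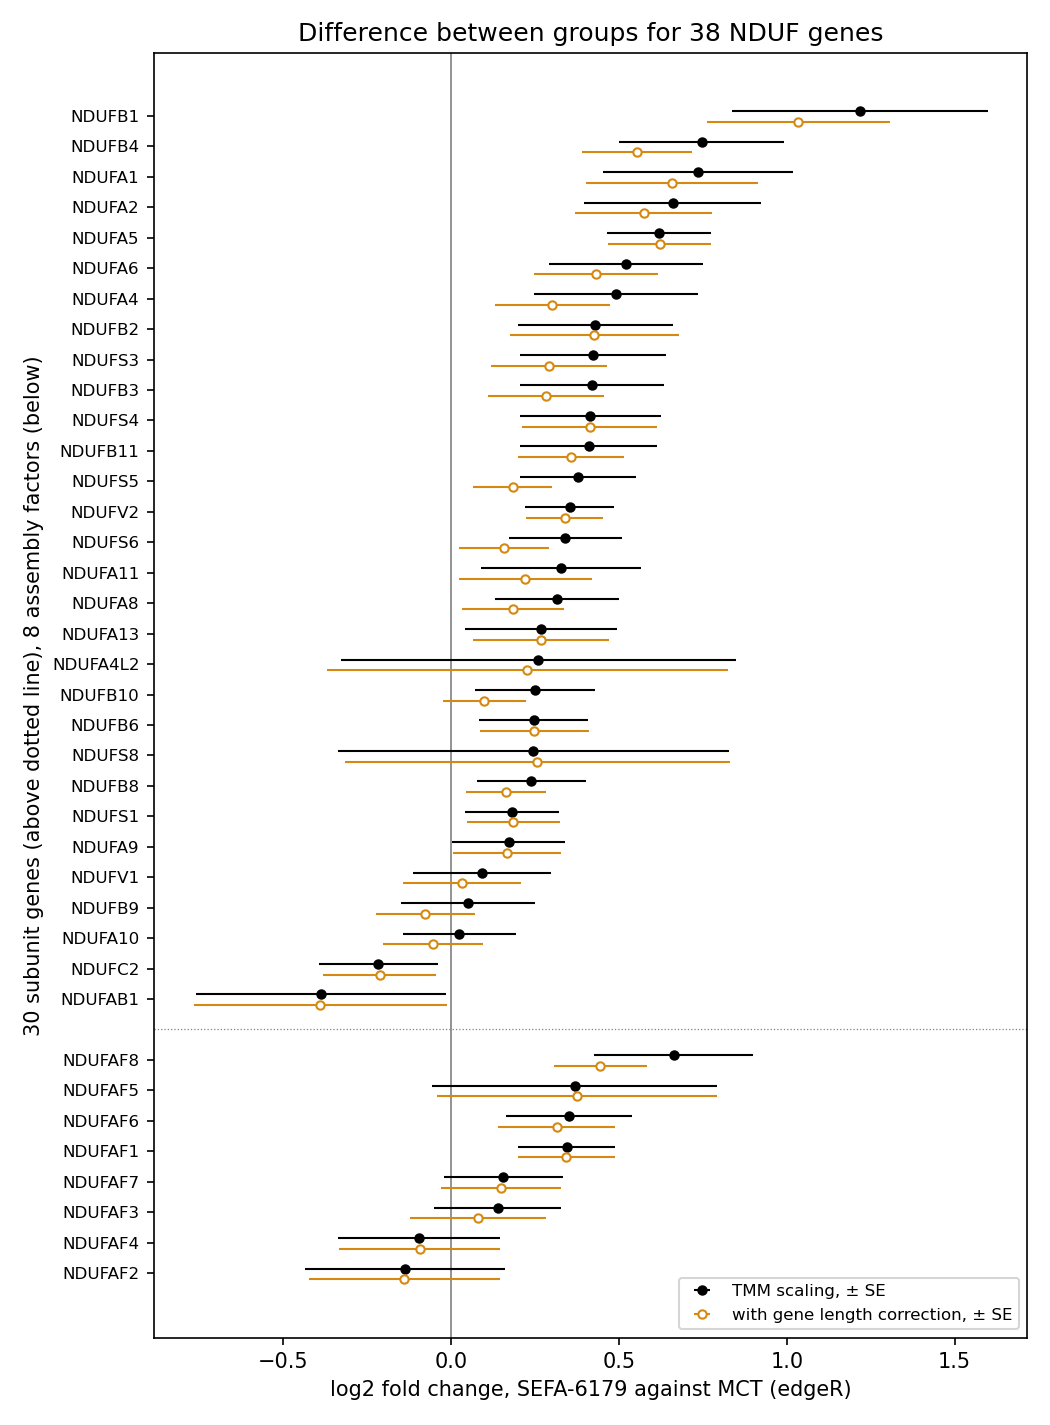
The log2 fold change (SEFA-6179 against MCT, edgeR) of 30 subunit genes and the 8 assembly factors is plotted on the x axis, with bars for the standard error; filled points use the main scaling and open points add a correction for gene length. Of the filled points, 34 of 38 lie to the right of 0, from -0.39 for NDUFAB1 to 1.22 for NDUFB1.

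NDUFA5, a supernumerary subunit of the Q module on chromosome 18 (23881867–23924133 in the deposited table, plus strand), had the smallest p among the NDUF genes. Its levels in SEFA-6179 replicates 1 to 5 were 26.5, 31.2, 34.7, 37.4 and 36.8 CPM, after TMM scaling of the libraries. In MCT they ran from 18.01 to 29.7 CPM with a median of 20.3. Only MCT replicate 6 reached into the SEFA-6179 range, above SEFA-6179 replicate 1. The means were 33.3 ± 4.54 and 21.7 ± 4.43 CPM (SD), a log2 fold change of 0.62 ± 0.15 (SE), with an edgeR adjusted p of 0.139. Under the alternatives the adjusted p of NDUFA5 ran from 0.0356 (DESeq2) to 0.313 (edgeR without SEFA-6179 replicate 5).

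Other Q module genes gave smaller differences. NDUFS3, a core subunit of this module, had a log2 fold change of 0.42, and NDUFA9, a supernumerary one, 0.17. With single libraries left out, NDUFS3 ran from 0.278 to 0.569 and NDUFA9 from 0.055 to 0.266. NDUFS8, which carries iron–sulfur clusters, gave 0.24 on a mean of only 14.9 counts per library.

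In the N module, NDUFV2 and NDUFA2 had the smallest p values. NDUFV2, a core subunit with an iron–sulfur cluster, stood at 49.2, 64.35, 58.3, 64.8 and 63.5 CPM in SEFA-6179 replicates 1 to 5, against 40.9 to 57.7 CPM (median 44.1) in MCT. Its log2 fold change was 0.35 ± 0.13 (SE), with an edgeR adjusted p of 0.331. All SEFA-6179 libraries but replicate 1 lay above all MCT libraries, and MCT replicates 5 and 6 lay above that replicate. NDUFA2, a small supernumerary subunit, stood at 28.3, 51.7, 52.9, 65.0 and 43.0 CPM in SEFA-6179 and at 14.5 to 43.7 CPM (median 28.4) in MCT. Its log2 fold change was 0.66 ± 0.26 (SE; edgeR adjusted p = 0.368). SEFA-6179 replicate 1 lay just under the MCT median, and replicates 2, 3 and 4 lay above every MCT library.

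The other N module members were also above 0. NDUFA6, NDUFS4 and NDUFS6, which are supernumerary, had log2 fold changes of 0.52, 0.42 and 0.34. NDUFS1, the large core subunit with several iron–sulfur clusters, had 0.18, and NDUFV1, the core subunit that binds NADH and flavin, had 0.09. With single libraries left out, NDUFS6 ran from 0.17 to 0.42, NDUFS1 from 0.07 to 0.25 and NDUFV1 from -0.04 to 0.20. Over the 10 N module genes, 3 of them described below, all 10 were above 0 with a median of 0.39.

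The largest log2 fold changes lay among small supernumerary subunits of the membrane arm. NDUFB1 (chromosome 7, 113652769–113659612, minus strand) stood at 10.45, 24.7, 20.5, 27.7 and 15.8 CPM in SEFA-6179 and at 3.33 to 14.3 CPM (median 7.76) in MCT. MCT replicates 5 and 6 lay above SEFA-6179 replicate 1, and the other SEFA-6179 libraries lay above all of MCT. The means were 19.8 ± 6.90 and 8.55 ± 4.76 CPM (SD), a log2 fold change of 1.22 ± 0.38 (SE; edgeR adjusted p = 0.252).

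NDUFB4 (chromosome 13, 139724149–139730501, minus strand) was at 57.5, 89.1, 80.6, 112 and 66.8 CPM in SEFA-6179 and at 26.7 to 75.5 CPM (median 46.5) in MCT. The same 2 MCT libraries, 5 and 6, overlapped its SEFA-6179 values. The log2 fold change of NDUFB4 was 0.75 ± 0.25 (SE; edgeR adjusted p = 0.277). NDUFA1, another small subunit of this arm, was at 9.82, 25.4, 23.9, 23.1 and 17.6 CPM against 6.84 to 20.1 CPM (median 10.2). For NDUFA1, SEFA-6179 replicate 1 lay under the MCT median, and the log2 fold change was 0.74 ± 0.28 (SE; edgeR adjusted p = 0.346).

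Most other membrane arm subunits had smaller positive values. NDUFB2, NDUFB3 and NDUFB11 had log2 fold changes of 0.43, 0.42 and 0.41, and NDUFS5, named with the matrix subunits but placed in this arm, had 0.38. NDUFA11, NDUFA8 and NDUFA13 had 0.33, 0.32 and 0.27, and 0.11, 0.21 and 0.14 without SEFA-6179 replicate 4. NDUFB6, NDUFB10 and NDUFB8 had 0.25, 0.25 and 0.24, and NDUFA10 had 0.02. Outside complex I, NDUFA4 had 0.49 and NDUFA4L2 had 0.26.

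Of the 9 NDUFB genes, all 9 were above 0, with a median log2 fold change of 0.41 and a lowest value of 0.05 for NDUFB9. Of the 12 genes named NDUFA or NDUFAB, 11 were above 0 with a median of 0.32. The membrane arm list held 18 of its 21 genes in the table, with 16 above 0 and a median of 0.32.

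**Figure D2:**
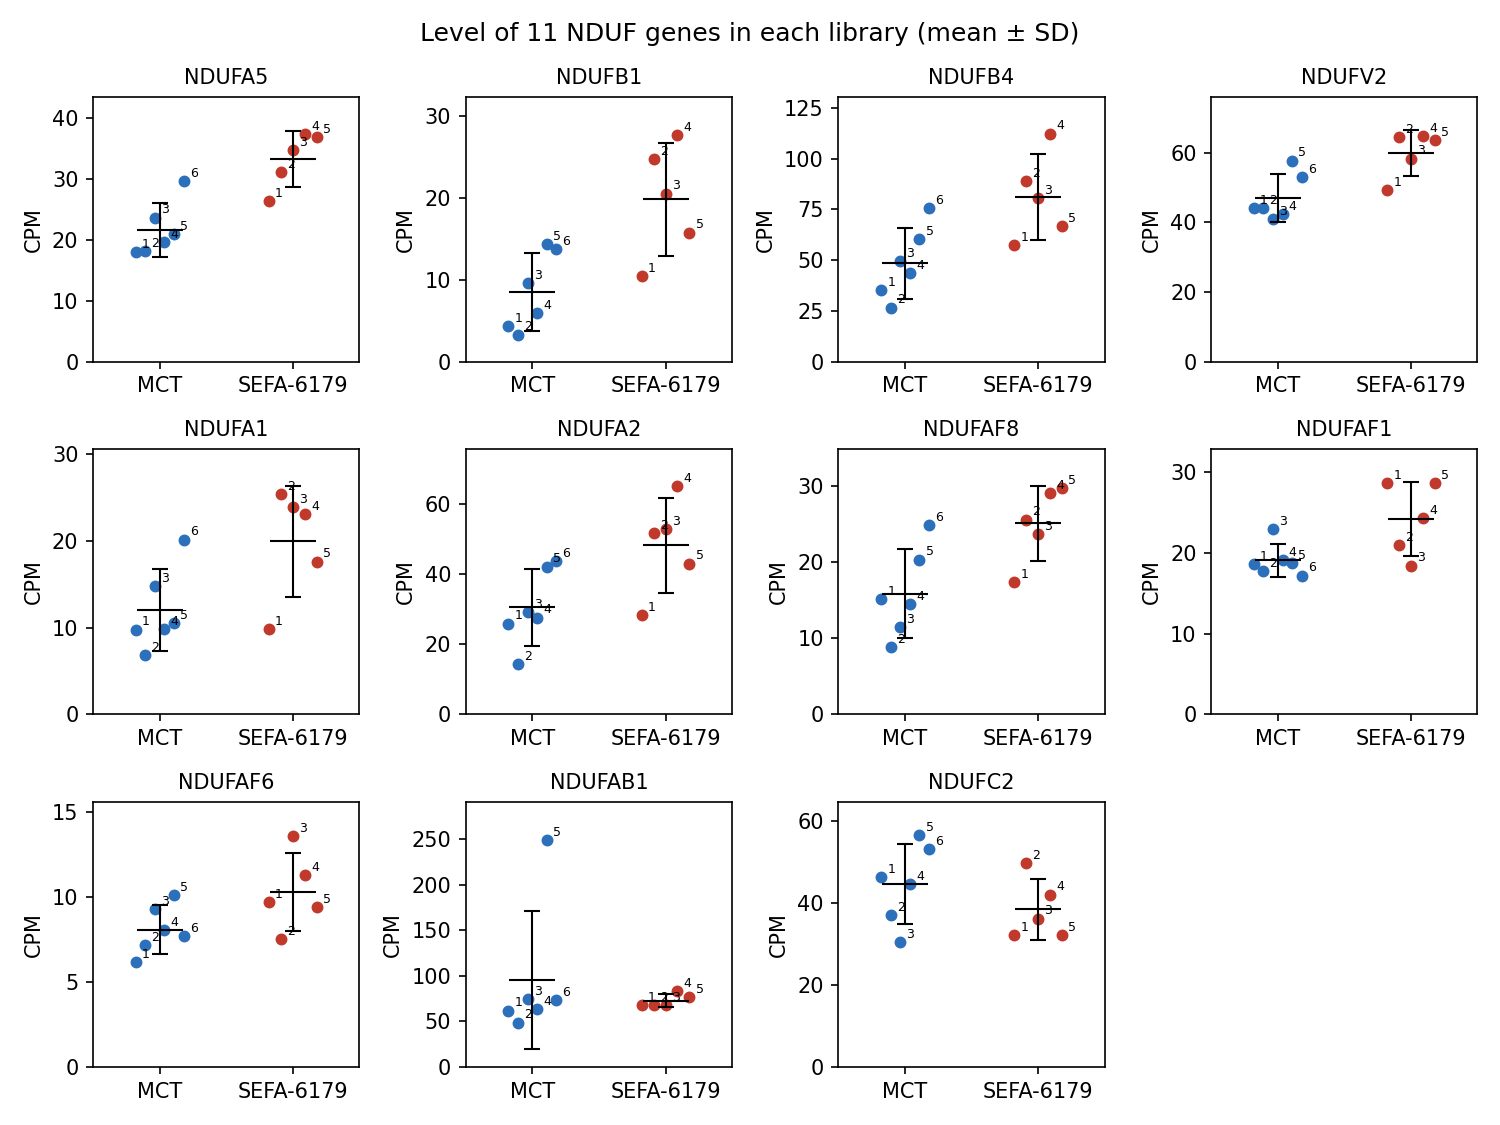
The y axis of each panel is the level in CPM of 1 NDUF gene, the points are the libraries of each group numbered by replicate, and the black bars are the mean ± SD. SEFA-6179 replicate 1 and MCT replicates 5 and 6 lie in the zone where the groups overlap for NDUFB1, NDUFB4 and NDUFV2, and MCT replicate 5 alone stands at 249 CPM for NDUFAB1.

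Both of the lowest log2 fold changes were also those of genes on the membrane arm list. NDUFAB1 is the mitochondrial acyl carrier protein, which also serves lipoic acid and iron–sulfur cluster synthesis. It was at 67.8, 67.8, 67.6, 83.3 and 76.6 CPM in SEFA-6179, and in MCT at 48.7 to 249 CPM with a median of 68.5. The highest value, in MCT replicate 5, stood alone, and the other MCT libraries reached at most 74.45 CPM. The log2 fold change of NDUFAB1 was -0.39 ± 0.37 (SE; edgeR adjusted p = 0.762) and turned to 0.17 without MCT replicate 5.

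NDUFC2, a membrane arm subunit next to the mitochondrially encoded ND2, was at 32.1, 49.6, 36.2, 42.0 and 32.1 CPM in SEFA-6179 and at 30.4 to 56.5 CPM (median 45.4) in MCT. The groups overlapped over most of their range, and the log2 fold change was -0.22 ± 0.18 (SE; edgeR adjusted p = 0.707). NDUFC2 overlaps THRSP, a lipogenic regulator on the opposite strand with more counts, and whether the counting used strand is unknown here. THRSP was at 89.8 ± 54.3 CPM in SEFA-6179 and 118 ± 97.3 CPM in MCT. Its part in the NDUFC2 value was not tested.

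Among the assembly factors, NDUFAF8, the partner that stabilises NDUFAF5, came first by p value (chromosome 12, 1517485–1519427, minus strand). It was at 17.4, 25.6, 23.7, 29.1 and 29.7 CPM in SEFA-6179 and at 8.87 to 24.9 CPM (median 14.8) in MCT. All SEFA-6179 libraries lay above the MCT median and 3 lay above every MCT library. The log2 fold change was 0.66 ± 0.24 (SE; edgeR adjusted p = 0.308). NDUFAF5, which hydroxylates the subunit NDUFS7, had 0.37 ± 0.43 (SE, edgeR adjusted p = 0.806). It ran from 0.16 (without SEFA-6179 replicate 4) to 0.58 (without SEFA-6179 replicate 1) when single libraries were left out.

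NDUFAF1, part of the assembly complex for the membrane arm, was at 28.7, 21.0, 18.45, 24.3 and 28.6 CPM in SEFA-6179 and at 17.2 to 23.0 CPM (median 18.7) in MCT. SEFA-6179 replicates 1, 4 and 5 lay above every MCT library, so replicate 1, low for many subunits, was the highest here. Its log2 fold change was 0.34 ± 0.14 (SE; edgeR adjusted p = 0.396). NUSAP1, a mitotic spindle gene that overlaps NDUFAF1 on the other strand with more counts, had a log2 fold change of -0.02.

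NDUFAF6, needed for the mitochondrially encoded ND1, was at 9.71, 7.51, 13.6, 11.3 and 9.43 CPM in SEFA-6179 and at 6.15 to 10.1 CPM (median 7.89) in MCT, with 2 SEFA-6179 libraries above every MCT library. Its log2 fold change was 0.35 ± 0.19 (SE; edgeR adjusted p = 0.520), and 0.23 without SEFA-6179 replicate 3. The remaining factors were nearer to 0. NDUFAF7, a mitochondrial methyltransferase, had 0.15, and NDUFAF3, which acts in Q module assembly, had 0.14. Its partner NDUFAF4 had -0.10, and NDUFAF2, a late factor related to NDUFA12, had -0.14.

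The subunit median exceeded the assembly factor median by 0.08 on the log2 scale. That gap was 0.02 after a correction for gene length and ran from 0.03 (without SEFA-6179 replicate 4) to 0.19 (without SEFA-6179 replicate 1) when single libraries were left out. The assembly factor median itself was 0.15 without MCT replicate 2. The 8 factors ranged from -0.14 to 0.66, inside the subunit range of -0.39 to 1.22. No difference in response between the kinds was tested.

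Per length, the subunit genes were mostly far more abundant than the assembly factors. The median of the deposited FPKM (fragments scaled to gene length and library depth) was 26.1 over subunits and 3.48 over factors. NDUFA4 was highest, at 349 ± 108 FPKM in SEFA-6179 and 249 ± 78.3 in MCT (SD). NDUFB9 followed with 117 ± 23.2 and 113 ± 30.03 FPKM, and NDUFB4 with 147 ± 38.04 and 87.8 ± 31.8 FPKM. Over all libraries NDUFB9 and NDUFB4 were level, and 33 of the 38 neighbouring pairs in the order lay closer together than the larger of their SDs.

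Of the 8 assembly factors, 6 ranked 30th or later among the 39 and lay under 10 FPKM. Of the 31 subunit genes, 6 lay under 10 FPKM. Among these 6, NDUFB2, NDUFB6 and NDUFA5 have long gene models (8101, 4458 and 4452 bases), which lower the FPKM for a given count. NDUFAF3 lay at 14.3 FPKM over all libraries, rank 24. NDUFAF8 lay at 100.8 ± 19.9 FPKM in SEFA-6179 and 63.9 ± 23.6 in MCT, rank 7, on the shortest gene model of the set (246 bases). The lowest levels were those of NDUFAF4 (0.806 ± 0.182 FPKM over all libraries), NDUFA4L2 (0.404 ± 0.216) and NDUFS8 (0.0803 ± 0.0504). NDUFS8 encodes a core subunit, and its gene model of 9685 bases, the longest of the set, overlaps 3 other genes with higher counts, so its level is uncertain. In all, 8 of the 39 genes are overlapped by a gene with more counts, among them NDUFS1, NDUFB11, NDUFAF3 and NDUFAF7.

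**Figure D3:**
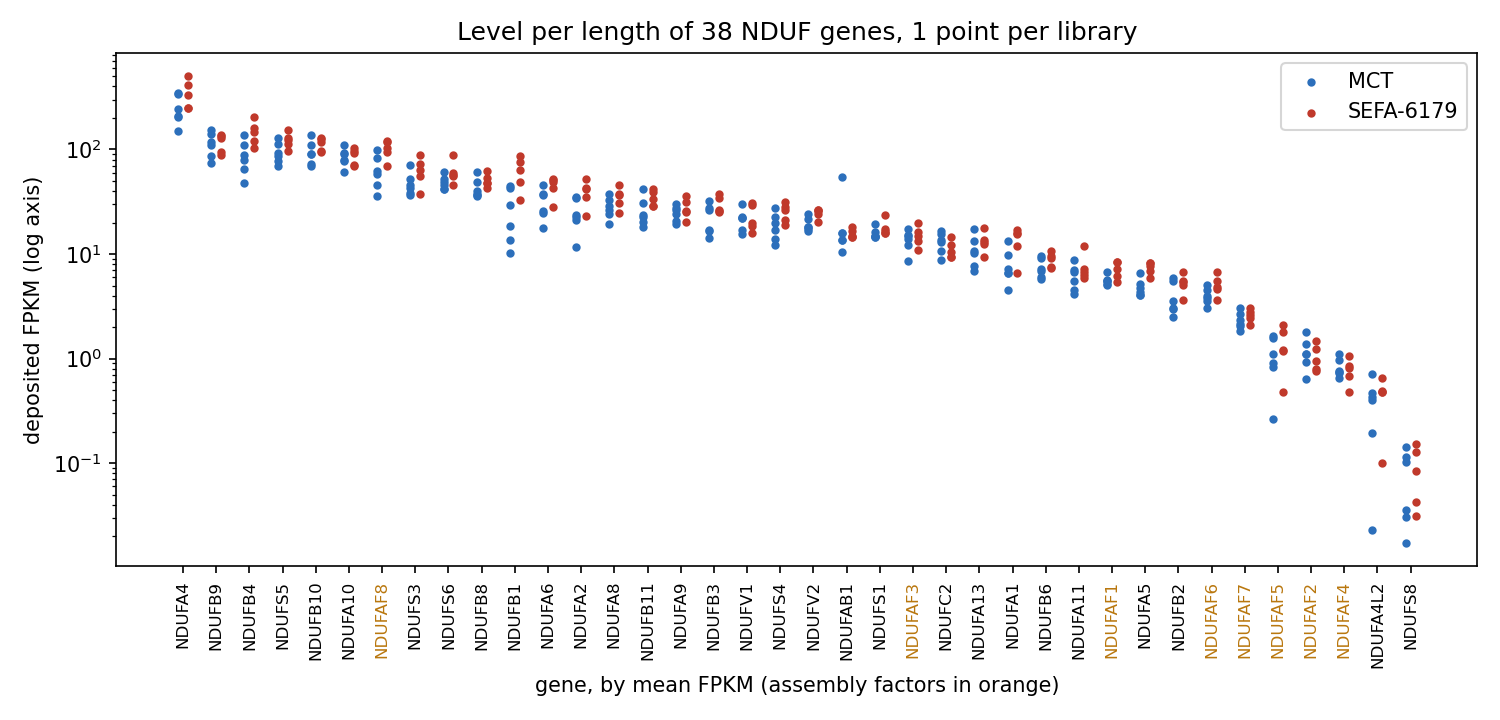
Each column is 1 of 38 NDUF genes in order of mean level, each point is 1 library, and the y axis is the deposited FPKM on a log axis. Assembly factors, named in orange, fill most of the low end from rank 30, with NDUFAF8 at rank 7.

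The NDUF subunits varied together from library to library, inside each group as well as between them. For the 29 subunit genes with a mean count of at least 50, the median correlation of log2 CPM over the 11 libraries was 0.67 across 406 pairs, and 0.66 after the group means were taken out. These points share a library and its depth, so the correlation is a description. The correlation of each gene with the median of the other subunits had a median of 0.85 over subunits. It was above 0.7 for 22 of the 29, with the highest value for NDUFA4 (0.957), which is outside complex I. Among the subunits with low values were NDUFC2 (0.32) and NDUFAB1 (0.41). Over the 8 assembly factors the median of this correlation was 0.36, from -0.16 for NDUFAF4 to 0.95 for NDUFAF8.

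Expressed as the median log2 difference from the MCT mean, the 29 subunit genes stood at 0.01, 0.41, 0.20, 0.73 and 0.45 in SEFA-6179 replicates 1 to 5. In MCT replicates 1 to 6 they stood at -0.14, -0.44, -0.18, -0.08, 0.34 and 0.40. SEFA-6179 replicate 1 was thus at the level of the controls, and MCT replicates 5 and 6 lay inside the SEFA-6179 range. SEFA-6179 replicate 4 held the highest value of its group for 24 of the 29 genes, and MCT replicate 2 the lowest of its group for 20. Without SEFA-6179 replicate 4 the subunit median log2 fold change was 0.23, and without MCT replicate 2 it was 0.24. Without SEFA-6179 replicate 1 it was 0.41. Leaving out single libraries moved the log2 fold change of 22 of the 39 genes by over 1.5 times for at least 1 library, and SEFA-6179 replicate 4 did so for the most genes, 15. MCT replicate 2 had the highest total count and MCT replicate 6 the lowest, and the part of depth was not tested.

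The assembly factors varied less between libraries. Their medians were 0.08, 0.15, 0.33, 0.42 and 0.33 in SEFA-6179 and -0.06, -0.14, 0.15, 0.00, 0.27 and 0.17 in MCT. Nuclear genes of complexes II to V, with 29 genes, followed the subunits: 0.08, 0.38, 0.40, 0.61 and 0.36 in SEFA-6179, and -0.07, -0.36, -0.01, -0.07, 0.27 and 0.42 in MCT. A set of 288 other genes below 1000 bases, outside the respiratory chain, gave -0.01, 0.24, 0.27, 0.37 and 0.22 in SEFA-6179, and -0.14, -0.35, -0.11, -0.08, 0.43 and 0.31 in MCT. The libraries low or high for the subunits were thus also low or high for short genes of other kinds.

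**Figure D4:**
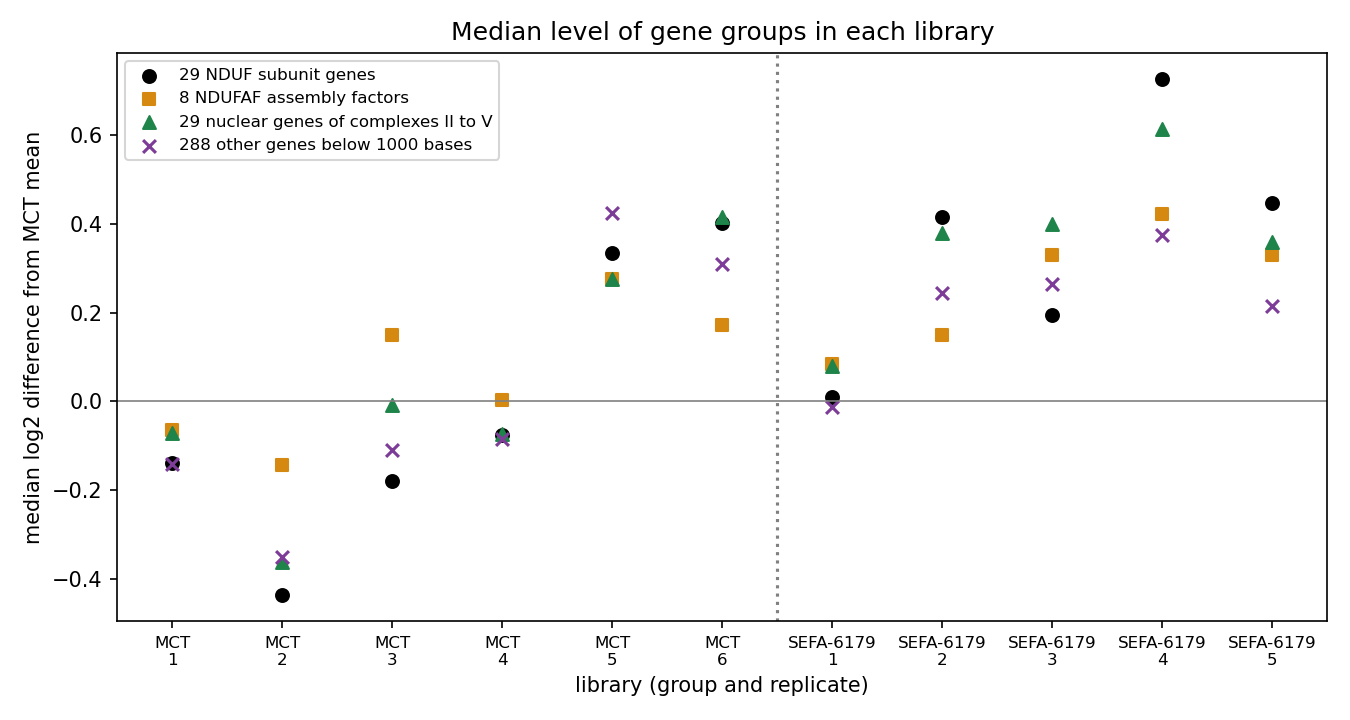
The y axis is the median log2 difference from the MCT mean of 4 gene groups in each library, with the libraries on the x axis and a dotted line between the groups. SEFA-6179 replicate 1 lies near 0 and MCT replicates 5 and 6 lie between 0.17 and 0.43 for all 4 gene groups; these are inside the SEFA-6179 range except the short genes of MCT replicate 5, which lie above it.

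NDUF genes are short: their median length in the deposited table was 1844 bases (1512 for subunits, 2954 for assembly factors) against 4382 for all genes tested. Across the 39 genes, the log2 fold change went down with log2 length (r = -0.52), where it was -0.04 across 13671 genes. These values are across genes, which are not independent replicates. Genes below 1000 bases and outside the respiratory chain also leaned toward SEFA-6179, with 294 of 478 above 0 and a median of 0.14.

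Within each length class the NDUF median lay above that of the other genes. Below 1000 bases, 10 of 10 NDUF genes were above 0 with a median of 0.42, against 0.14. From 1000 and under 2000 bases the NDUF median was 0.32 (10 of 10) against 0.05 over 1568 others. From 2000 and under 4000 bases it was 0.26 (9 of 12 above 0) against -0.01, and from 4000 bases 0.24 (5 of 7) against -0.01. Long NDUF genes thus mostly had the same direction at a smaller size, and NDUFA5, at 4452 bases, was the highest of its class.

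With a smooth correction of each library for gene length, 32 of the 39 log2 fold changes were lower than before, counted with their sign. The median was then 0.25 over subunits and 0.23 over assembly factors, and 32 of the 39 were above 0, against 48.6% of all genes tested. At an unadjusted p below 0.05, 10 were higher (8 subunits and 2 assembly factors), against 5.17% of all genes tested. NDUFS5 was no longer among them and NDUFB11 came in. As before, edgeR called 0 at the adjusted threshold. NDUFB1 went from 1.22 to 1.03, NDUFB4 from 0.75 to 0.55 and NDUFAF8 from 0.66 to 0.44, while NDUFA5 stayed at 0.62. NDUFB9 and NDUFA10, both near 0 before, went to -0.08 and -0.05. The correlation with log2 length across the 39 genes was -0.32 after the correction.

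**Figure D5:**
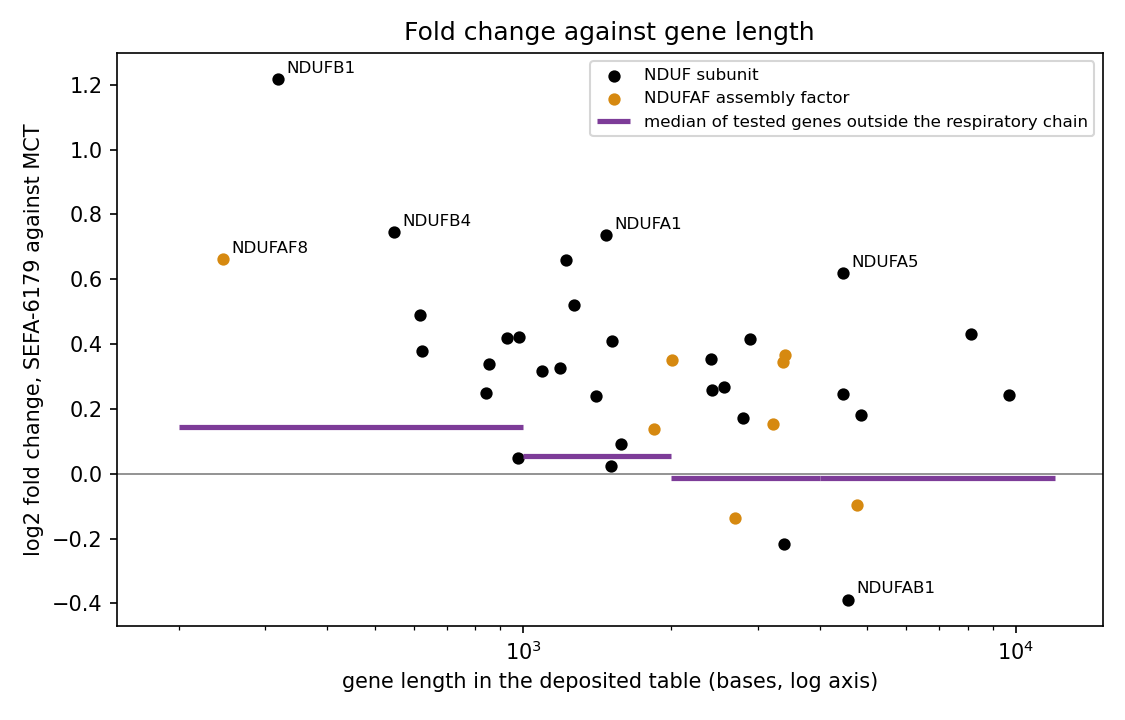
The x axis is the gene length in the deposited table in bases (log axis) and the y axis the log2 fold change, SEFA-6179 against MCT; points are 38 NDUF genes and purple lines the medians of other genes by length class. NDUF genes below 2000 bases all lie above 0, and the purple line runs from 0.14 in the shortest class to -0.01 in the longest.

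Further genes of complex I lie outside the naming rule. The table holds 5 subunit genes without an NDUF gene name, identified by its gene descriptions (NDUFV3, NDUFA12 and NDUFS7) or by gene identifier (NDUFB5 and NDUFA7). All 5 were above 0 with a median log2 fold change of 0.41, and 0.39 after the length correction. Their median length was 3211 bases. The smallest p belonged to NDUFB5, a membrane arm subunit, at 26.3 ± 7.91 CPM in SEFA-6179 and 18.3 ± 3.70 in MCT (SD; log2 fold change 0.52 ± 0.20 SE, edgeR adjusted p = 0.350). None of the 5 was called by edgeR, and 2 were higher at an unadjusted p below 0.05, against 5.24% of all genes tested.

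Of 12 listed assembly factors without an NDUF name, 10 were tested, 7 were above 0 and the median was 0.20. Of the 10, 0 were called by edgeR and 2 were higher at an unadjusted p below 0.05, against 5.24% of all genes tested. TMEM70, which acts in assembly of complexes I and V, had the smallest p, with a log2 fold change of 0.31 ± 0.14 (SE; edgeR adjusted p = 0.426). The 7 subunits encoded by mitochondrial DNA were split: 4 were above 0, with a median of 0.07, and -0.07 after the length correction. ND3, a short pump-side subunit, was at 1779 ± 214 CPM in SEFA-6179 and 944 ± 383 in MCT (SD), a log2 fold change of 0.92 ± 0.26 (SE; edgeR adjusted p = 0.194). DESeq2 called ND3, with an adjusted p of 0.0268, as did the authors' deposited table (0.0248).

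Of 38 nuclear genes listed for complexes II to V, 29 were tested, 28 were above 0 and the median was 0.34, or 0.23 after the length correction. Of these, 10 were higher in SEFA-6179 at an unadjusted p below 0.05, against 5.24% of all genes tested. At that p 0 were lower, and 0 were called by edgeR. UQCR10, a small complex III subunit, had the smallest p, with a log2 fold change of 0.65 ± 0.17 (SE; edgeR adjusted p = 0.153). The difference between these genes and the NDUF genes was not tested. Among 12 regulators of mitochondrial biogenesis, 5 were above 0 with a median of -0.02 and 0 called. NRF1, a transcription factor for many respiratory genes, had the smallest p, at -0.25 ± 0.14 (SE; edgeR adjusted p = 0.548).

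Markers of other liver cells differed between the groups to varying degrees, and none of their genes was called by edgeR. All 5 cholangiocyte markers tested were below 0 (median log2 fold change -1.26), with summed levels of 17.5–36.0 CPM in SEFA-6179 and 29.9–77.2 CPM in MCT. All 5 stellate cell markers tested were also below 0 (median -0.41), with sums of 431–699 against 560–947 CPM. Of the 7 macrophage markers 6 were above 0 (median 0.65; 59.9–2254 against 197–1294 CPM). Within each group, the libraries highest for the subunits were low in these. SEFA-6179 replicate 4 had the lowest macrophage sum of its group (59.9 CPM), and MCT replicates 5 and 6 the lowest of theirs (197 and 444 CPM). The libraries lowest for the subunits were not the highest in these: SEFA-6179 replicate 1 had 1035 CPM and MCT replicate 2 had 664 CPM. All 5 endothelial markers tested were above 0 (median 0.36; 248–340 against 220–325 CPM). The 4 erythroid markers tested were below 0 (median -0.32; 33.2–62.0 against 37.0–78.6 CPM), and of the 8 hepatocyte markers 5 were above 0 (median 0.15). No marker was at 0 in all libraries. The part of cell composition in the NDUF values was not tested.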

How the data were processed

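Liver RNA libraries from 5 SEFA-6179 and 6 MCT piglets were compared. Per the file headers, the authors deposited a single table with a raw count and an FPKM value per gene and library, a normalized signal (the count over a size factor of its library), group means of that signal, gene length, and their own log2 fold change, p-value and adjusted p-value. The submitters' processing notes name, without roles, DESeq2 1.20.0, featureCounts 1.5.0-p3, HISAT2 2.0.5 and StringTie 1.3.3b. The genome build was not given in the sources used here, nor was the strand setting. Whether reads from both strands of a locus were counted together is therefore unknown. The labels tie no library to a named animal, and p-values measure only the spread between these libraries.

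The deposited counts were tested over all genes with edgeR 4.0.16 in R 4.3.3: filterByExpr (minimum count 10), scaling by trimmed mean of M values (TMM), robust quasi-likelihood test, two-sided, Benjamini-Hochberg adjustment, threshold 0.05. The test was checked on simulated data. CPM are TMM-scaled, and standard errors are of log2 fold changes. For the length correction, each gene's log2 CPM was taken as its difference from the gene's mean over all libraries. A lowess curve (span 0.5) of these differences against log2 gene length in each library, centred on its median, entered as an offset. DESeq2 1.42.0 and limma 3.58.1 were alternatives, and adjusted p-values that DESeq2 gave as NA stayed NA.

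Values in every library are given for the 6 subunits and the 3 assembly factors with the smallest p and the 2 genes with the lowest log2 fold change. Levels are given for the 3 highest and 3 lowest genes by FPKM. From other lists, except those of cell type markers, the gene with the smallest p is named. The NDUF genes and all lists were chosen with earlier results of these data known, so counts over them are descriptions. Of the 39 genes, 1 is counted with the rest and not reported here by name or in the figures. No promoter or protein sequence was used here, so a planned motif description was not made.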

Additional observations from a re-analysis of the deposited data

Results flagged for a closer look

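In 80 sets of values (the CPM of 38 NDUF genes, and the subunit and assembly factor medians, in each group), 4 held a library that stood apart by Dixon's criterion. Chance gives about 1 in 20, or 4. NDUFAB1, the acyl carrier protein, was at 249 CPM in MCT replicate 5 (other MCT libraries 48.7–74.45). NDUFA11, a membrane arm subunit, was at 14.35 CPM in SEFA-6179 replicate 4 (others 7.08–8.78), and NDUFS1, a core subunit, at 115 CPM in the same library (others 77.4–86.3). The assembly factor NDUFAF1 was at 23.0 CPM in MCT replicate 3 (others 17.2–19.1).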

How the results depend on the processing

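The number of NDUF genes called was 0 under every alternative except DESeq2, which called 1 (NDUFA5). The number called among all genes was 30 in edgeR, and 250 with DESeq2, 60 with limma, 6 with EIF1AY, a Y-linked gene, as a covariate, and 1 with MCT replicate 5 and SEFA-6179 replicate 4 both left out. Leaving out single libraries gave 0 (without SEFA-6179 replicate 5, likewise MCT replicate 4) to 53 (without SEFA-6179 replicate 3), with 1 without MCT replicate 1, 9 without MCT replicate 2 or SEFA-6179 replicate 1, and 16 without MCT replicate 3. The causes were not tested. With single libraries left out, 31 to 35 NDUF genes were above 0, and the subunit median ran from 0.23 to 0.41 and the assembly factor median from 0.15 to 0.29.

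Replicate numbers did not pair the libraries. This was judged on log2 CPM after each gene's group mean was taken out. Same-numbered libraries then correlated at -0.149 to 0.202, and 1 of 5 SEFA-6179 libraries correlated best with its own number. A replicate block over replicates 1 to 5 called 8 of all genes and 0 NDUF genes, with 35 above 0 and a subunit median of 0.41. The same libraries without the block, a setting chosen after seeing the data, gave 40 calls and the same median (0.41). That fit is the same as the one without MCT replicate 6. The block with the length correction called 9 of all genes.

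Of the 39 genes, 31 kept their direction under all 23 alternatives, and 8 did not. The 23 include the fit without MCT replicate 6 under both of its names. NDUFA10 went to -0.0538 with the length correction, -0.0939 with block and length, -0.0048 with the covariate, and -0.0556 to 0.1046 with single libraries left out. NDUFB9 went to -0.0772 with the length correction, to -0.0359 with block and length, and to -0.0432 to 0.1543. NDUFV1 went to -0.0086 with block and length, and to -0.0372 to 0.2023. NDUFAF2 went to 0.0289 with the block, 0.0117 with block and length, 0.0323 in replicates 1 to 5 without the block, and -0.2897 to 0.0323. NDUFAF4 ran from -0.231 to 0.0362 and NDUFS8 from -0.0468 to 0.5328, with -0.0381 for NDUFS8 in limma. NDUFAB1 went to 0.0535 in limma, 0.1258 with both libraries named above left out, and -0.5214 to 0.1747. NDUFA4L2 went to -0.0136 without that pair of libraries. Depth limits NDUFS8 and NDUFA4L2, the only NDUF genes with a mean count under 50.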
